A study of Rattus norvegicus with 9 samples.

Results

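Genes of renal gluconeogenesis and of other metabolic work of the proximal tubule were followed in poly(A) RNA from rat kidney. The 8 genes were chosen by symbol in the authors' table of FPKM, read counts scaled by transcript length and library size, and all 8 were present, each as 1 of its 11235 rows. They were Pck1 (ENSRNOG00000028616, chromosome 3), Fbp1 (ENSRNOG00000017597, chromosome 17), Glud1 (ENSRNOG00000057367, chromosome 16), Gatm (ENSRNOG00000000168, chromosome 3), Miox (ENSRNOG00000008694, chromosome 7), Rgn (ENSRNOG00000007949, chromosome X), Inmt (ENSRNOG00000011250, chromosome 4) and the transcription factor gene Hnf4a (ENSRNOG00000008895, chromosome 3). All 8 had enough reads to be tested among 17335 genes. The list was chosen with earlier results of these data known. The 9 libraries fell into 3 groups of 3. The I/R + rapamycin group had renal ischaemia, reperfusion and rapamycin, an inhibitor of mTOR complex 1. The I/R group had the ischaemia and reperfusion alone, a model of acute kidney injury, and the sham group was operated on with no ischaemia. The rats were wild-type Sprague-Dawley animals of 6 to 8 weeks, and the ischaemia lasted 45 min. The series' design gave male rats, clamping of the left renal artery and 1 mg/kg of rapamycin a day by intraperitoneal injection. The sample protocols gave rats of either sex, oral gavage from 1 day before surgery, 1 or 2 mg/kg a day and 3 or 7 days of reperfusion. The sex, dose, route and time behind each library are therefore not settled by the labels.

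The proximal tubule is the segment of the nephron that makes glucose from lactate and glutamine and reabsorbs most of the filtrate. Glucose synthesis there runs through phosphoenolpyruvate carboxykinase (Pck1) and fructose-1,6-bisphosphatase (Fbp1), and is tied to ammonia production, in which glutamate dehydrogenase (Glud1) releases ammonium from glutamate. The same cells make guanidinoacetate, the precursor of creatine, through glycine amidinotransferase (Gatm), and break down myo-inositol through myo-inositol oxygenase (Miox). Hnf4a encodes a nuclear receptor that controls many genes of the proximal tubule and the liver.

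Of the 8 genes, Rgn and Inmt passed the test, an adjusted p under 0.05, and genes that pass it are named as called hereafter. Rgn, which encodes the calcium-binding protein and gluconolactonase regucalcin, rose 2.48-fold in I/R + rapamycin relative to sham kidney. Inmt, which encodes indolethylamine N-methyltransferase, rose 2.17-fold. In I/R kidney without the drug these genes stood 2.00-fold and 1.88-fold above sham, with adjusted p values that missed 0.05. Pck1, Fbp1, Glud1, Gatm, Miox and Hnf4a passed the test in none of the 3 comparisons, nor under any of the 21 other settings of the analysis. The comparisons are I/R versus sham, I/R + rapamycin versus I/R and I/R + rapamycin versus sham, and values given for all 3 keep that order.

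The 250 bases before the annotated start of transcription are shown for Rgn and Inmt, the genes that rose, and for Pck1, the most abundant by FPKM. They come from RefSeq on the build GRCr8, in which all 8 genes were found by symbol and gene ID. The window of Rgn is on the minus strand at chrX:4187958-4188207, that of Inmt on the minus strand at chr4:85652756-85653005, and that of Pck1 on the plus strand at chr3:182348322-182348571. Capitals mark matches to the motifs searched.
Rgn: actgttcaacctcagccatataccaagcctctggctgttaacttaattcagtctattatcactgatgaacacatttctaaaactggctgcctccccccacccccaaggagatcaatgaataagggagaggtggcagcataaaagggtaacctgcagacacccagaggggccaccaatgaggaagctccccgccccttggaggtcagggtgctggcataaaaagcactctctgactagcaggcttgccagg
Inmt: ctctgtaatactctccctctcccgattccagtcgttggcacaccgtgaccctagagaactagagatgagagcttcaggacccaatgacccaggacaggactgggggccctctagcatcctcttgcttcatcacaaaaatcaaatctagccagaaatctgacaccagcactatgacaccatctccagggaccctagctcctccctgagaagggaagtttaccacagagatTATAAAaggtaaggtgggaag
Pck1: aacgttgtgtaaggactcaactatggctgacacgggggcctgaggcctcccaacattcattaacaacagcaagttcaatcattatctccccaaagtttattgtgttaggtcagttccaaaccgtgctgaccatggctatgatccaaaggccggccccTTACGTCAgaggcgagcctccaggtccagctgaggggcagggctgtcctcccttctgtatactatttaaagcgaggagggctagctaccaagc

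The motifs were read on either strand of 33469 such windows. The letters TATAAA of a TATA box were in 12.9% of windows, and TGACGTCA or TTACGTCA of a cyclic AMP response element in 2.32%. The HNF4 letters CAAAGTCCA, CAAAGTTCA or CAAAGGTCA were in 0.986%. Inmt held TATAAA from base -21 to -16 before the start, and Pck1 held TTACGTCA from -93 to -86. Rgn held none of these letters. No window of the 8 genes held the HNF4 letters, a statement about these letters in this window alone. Miox held TATAAA from -47 to -42.

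Per length of transcript, 4 of the 8 genes were among the most abundant of the kidney. Pck1 had a median of 1776 FPKM over the 9 libraries and a range of 1362 to 2710 FPKM, and its place among the 11235 listed genes ran from 16 to 24. Miox had a median of 1518 FPKM (1121 to 2539), Gatm of 719.9 FPKM (591 to 1450) and Fbp1 of 639 FPKM (491 to 784), at places from 16 to 61. Glud1 lay at 178 FPKM (153 to 215) and Hnf4a at 135 FPKM (120 to 170.0). Inmt lay at 47.9 FPKM (22.6 to 57.4) and Rgn at 28.2 FPKM (10.4 to 34.5). In this order of medians the ranges of neighbours overlapped except between Fbp1 and Glud1 and between Hnf4a and Inmt. Within a library Miox was above Gatm, and Inmt above Rgn, in 9 of 9 libraries, while Pck1 was above Miox in 7 of 9. The 8 genes together took 1.01% to 1.52% of all counts of a library.

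Total counts ran from 44582251 to 60538627 per library, so each gene rested on at least 1111 reads in each library. The first principal component of all tested genes held 26.2% of the variance and set I/R 1 and sham 3 at one end, opposite I/R + rapamycin 1 and 2. All 20 proximal tubule markers listed, among them Lrp2, Cubn and Slc34a1, were measured. Their summed level was 15740 to 18630 CPM in I/R + rapamycin, 16370 to 19780 CPM in I/R and 15010 to 18850 CPM in sham libraries, and these ranges overlapped. A sum can hide moves of single markers. By gene, their median log2 fold changes were 0.21, -0.082 and 0.00020 in the 3 comparisons, with 16, 3 and 10 of the 20 above 0. None was called by edgeR. Lrp2 and Cubn, 2 of the 20, were lower in every treated than in every untreated injured library, as were 12.8% of all genes. In bulk tissue, fewer cells of a type and less RNA per cell cannot be told apart.

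Pck1, the enzyme that commits oxaloacetate to glucose synthesis, was at 4155, 4847 and 5168 CPM (read counts scaled to library size) in the I/R + rapamycin libraries. It was at 6389.5, 8166 and 5694 CPM in the untreated injured libraries and at 5029, 6910.3 and 4354 CPM in the sham libraries. The 3 treated libraries were lower than all 3 untreated injured ones, and the sham libraries spread across both. The log2 fold change of I/R + rapamycin versus I/R was -0.52 (95% interval -0.94 to -0.088), with an adjusted p of 0.241 by edgeR's quasi-likelihood test. Against sham, Pck1 was at -0.20 (SE 0.19) in I/R + rapamycin and at 0.31 (SE 0.19) in I/R.

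Fbp1, which removes a phosphate from fructose-1,6-bisphosphate, was at 1051, 1151 and 1030.2 CPM with rapamycin, at 822, 1306 and 1112 CPM in I/R and at 769, 1066 and 1105 CPM in sham. The lowest library of all was sham 1 and the highest I/R 2, and the groups overlapped. The log2 fold changes were 0.14 in I/R versus sham (95% interval -0.26 to 0.54), -0.0035 in I/R + rapamycin versus I/R (-0.40 to 0.40) and 0.14 in I/R + rapamycin versus sham (-0.26 to 0.54). As folds these intervals ran from 0.755 at the lowest to 1.46 at the highest.

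Glud1, the mitochondrial enzyme of glutamate deamination, was at 625, 659.6 and 546 CPM with rapamycin, at 494, 666 and 702.5 CPM in I/R and at 582, 649.5 and 572 CPM in sham. Its lowest and its highest library, I/R 1 and I/R 3, were in the same group. Its log2 fold changes were 0.047, -0.025 and 0.022 in the 3 comparisons, with a SE of 0.14 in each.

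Gatm was at 2063, 2338 and 1833 CPM in the I/R + rapamycin libraries, at 4284, 2599 and 2499 CPM in I/R and at 1912, 2277 and 3161 CPM in sham. I/R 1 and sham 3 were its highest libraries. All 3 treated libraries were below the 3 untreated injured ones, and the log2 fold change was -0.59 (95% interval -1.12 to -0.063, adjusted p = 0.265 by edgeR). Without these 2 libraries the value was -0.30 (adjusted p = 0.361 by edgeR). The erythrocyte markers, of which 3 of 6 were measured, summed to 84.8 to 524 CPM in I/R + rapamycin and 1242 to 3332 CPM in I/R libraries, and the 7 immediate early and stress markers to 275 to 346 CPM and 320.1 to 1541 CPM; their part in the values of Pck1 and Gatm was not tested. Gatm had the widest spread within groups of the 8 genes, with a SD of 0.34 on the log2 scale against a median of 0.15 for the 9587 tested genes at 10 CPM or more.

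Miox was at 1684, 1909 and 1768 CPM with rapamycin, at 1695, 1646 and 1264 CPM in I/R and at 1669.7, 2194 and 2955 CPM in sham. Sham 3 was the highest library and I/R 3 the lowest, and sham 1 lay within the range of the injured libraries. The log2 fold change of I/R versus sham was -0.57 (95% interval -0.997 to -0.14, adjusted p = 0.402 by edgeR), and that of I/R + rapamycin versus sham was -0.35 (SE 0.19, adjusted p = 0.466 by edgeR). Without I/R 1 and sham 3 these values were -0.41 and -0.12.

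Rgn was at 64.0, 60.7 and 52.5 CPM in the I/R + rapamycin libraries, at 37.1, 51.6 and 54.1 CPM in the untreated injured libraries and at 26.8, 26.2 and 18.5 CPM in the sham libraries. All 6 injured libraries were above all 3 sham libraries, and the treated and untreated injured libraries overlapped. Its mean was 59.1 ± 5.92 CPM with rapamycin, 47.6 ± 9.16 CPM in I/R and 23.8 ± 4.66 CPM in sham (SD, n = 3 each). Regucalcin binds calcium, and in rodents it also carries out the lactonase step on the way to ascorbate.

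Inmt, whose enzyme transfers methyl groups to tryptamine and related amines, was at 70.9, 65.8 and 57.1 CPM with rapamycin, at 44.7, 60.3 and 62.9 CPM in I/R and at 30.0, 32.6 and 26.9 CPM in sham. Again all 6 injured libraries were above the 3 sham libraries. The means were 64.6 ± 7.00 CPM with rapamycin, 56.0 ± 9.85 CPM in I/R and 29.8 ± 2.81 CPM in sham (SD, n = 3 each). Within each injured group Rgn and Inmt ranked the libraries in the same order, and sham 3 was the lowest of all 9 libraries for each. Of the 28 pairs among the 8 genes, Rgn and Inmt differed least over the 9 libraries, with a root mean square difference of 0.13 in log2 CPM centred on each gene's mean, against 0.17 for the next pair, Fbp1 and Glud1, and 0.85 for Miox and Rgn, the farthest. The pair lies on different chromosomes.

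Hnf4a was at 723, 839.8 and 738 CPM in the I/R + rapamycin libraries, at 854, 763 and 698 CPM in I/R and at 702, 669.96 and 926 CPM in sham. Its highest and lowest libraries, sham 3 and sham 2, were in the same group, and its range over the 9 libraries, 1.38-fold, was the narrowest of the 8 genes. The log2 fold changes were 0.010, -0.0085 and 0.0019 in the 3 comparisons, and the 95% intervals reached from -0.32 to 0.32 at most.

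**Figure D1:**
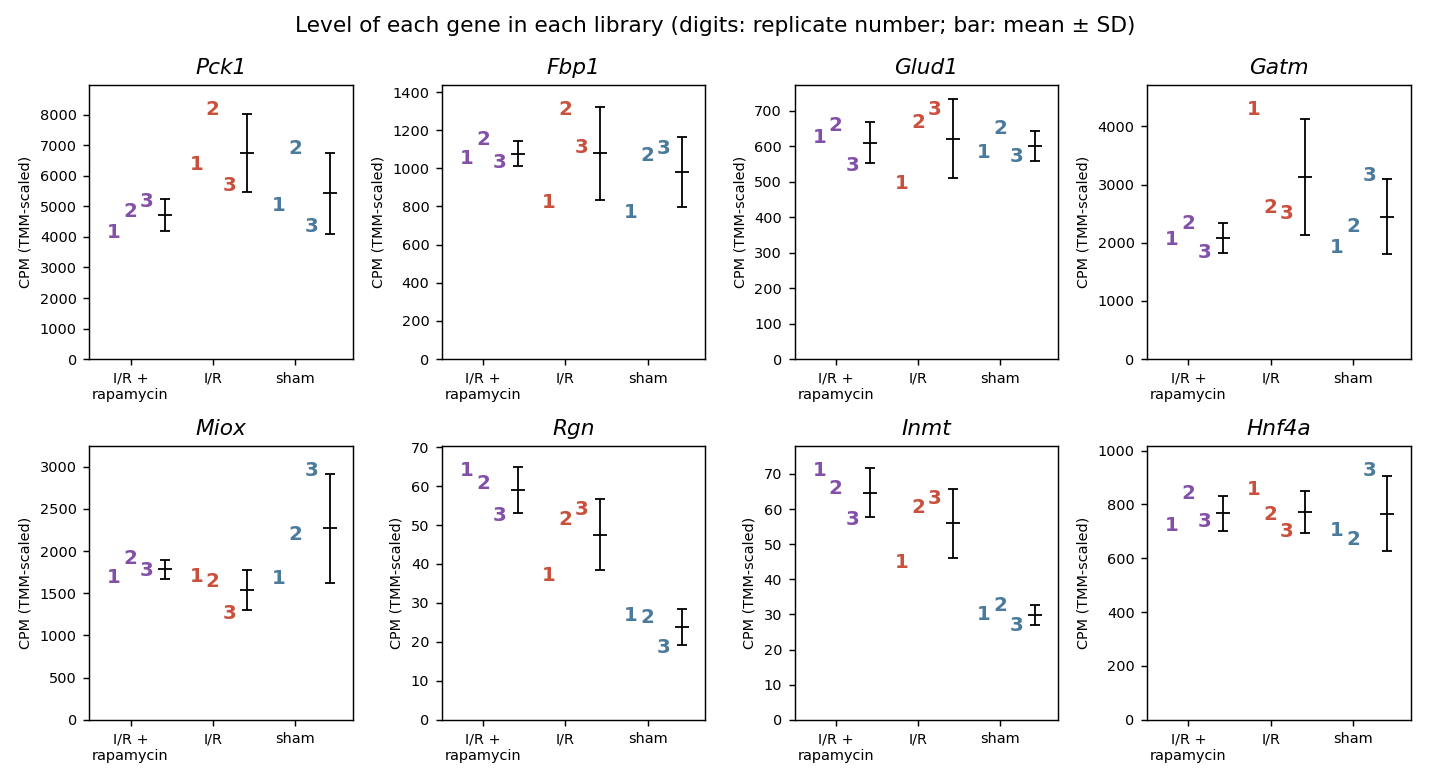
Level of each of the 8 genes in each library, in CPM scaled by TMM factors, on linear axes from 0. Digits are the replicate numbers of single libraries and the black bars give the mean and SD of the 3 libraries of a group. For Rgn and Inmt the sham libraries, at 18.5 to 26.8 and 26.9 to 32.6 CPM, lie below all libraries of the injured groups.

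The comparison of I/R with sham asks what the injury changed. No gene of the 8 passed an adjusted p of 0.05 by edgeR, against 0.0577% of all genes tested. At an unadjusted p of 0.05, 3 of the 8 passed, against 9.42% of all genes. DESeq2 called 2, Rgn and Inmt, out of 234 genes it called in all, and limma on log2(FPKM + 1) called 1, Inmt. The log2 fold change was 1.00 for Rgn (SE 0.17, adjusted p = 0.105 by edgeR) and 0.91 for Inmt (SE 0.14, adjusted p = 0.0677 by edgeR). These 2 genes were higher in every I/R library than in every sham library, as were 7.43% of all genes. The median over the 8 genes was 0.23, against 0.0033 over all genes tested. Over the 20 proximal tubule markers it was 0.21, so a median of this size was not particular to the 8 genes. I/R 1 was the lowest I/R library for Rgn and Inmt, and without it edgeR called both. The values were then 1.15 for Rgn (adjusted p = 0.0261 by edgeR) and 1.05 for Inmt (adjusted p = 0.0123 by edgeR). Leaving out the lowest library of the higher group raises the fold change by construction, so these calls add no support. Without I/R 1 and sham 3, both were called at 0.99 and 0.98 (adjusted p = 0.0103 and 0.0142 by edgeR). Of the 21 other settings, 4 called Rgn and 8 called Inmt. With each library left out, the values ran from 0.84 to 1.15 for Rgn and from 0.81 to 1.05 for Inmt.

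Setting I/R + rapamycin beside I/R asks what the drug changed in injured kidneys. By edgeR 0 of the 8 genes were called, against 0.127% of all genes, and DESeq2 and limma called 0. Pck1 and Gatm had an unadjusted p under 0.05, against 16.3% of all genes. They were also the 2 genes lower in every treated than in every untreated injured library, as were 12.8% of all genes. Rgn was at 0.31 (95% interval -0.067 to 0.69) and Inmt at 0.21 (-0.097 to 0.51). The intervals reach as far as a rise of 1.61-fold in Rgn and 1.42-fold in Inmt with the drug. The median over the 8 genes was -0.0060, against 0.0059 over all genes.

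Setting I/R + rapamycin beside sham asks how far treated kidneys lay from uninjured ones, and shares each of its groups with one of the other comparisons. Rgn and Inmt were called, 2 of 8 genes against 0.156% of all genes, and 0.0404% of all genes were called as higher. As the 8 genes were chosen with earlier results of these data known, this share is no independent test of the list. Their log2 fold changes were 1.31 for Rgn (95% interval 0.92 to 1.70, adjusted p = 0.0233 by edgeR) and 1.12 for Inmt (0.81 to 1.42, adjusted p = 0.0199 by edgeR). DESeq2, which called 568 genes in all, and limma on log2(FPKM + 1) also called these 2 genes. Both were higher in every treated than in every sham library, as were 9.69% of all genes, and these 2 were also the members with an unadjusted p under 0.05, against 13.8% of all genes. The median over the 8 genes was 0.012, against 0.0012 over all genes. Without I/R + rapamycin 1, I/R + rapamycin 2, sham 1 or sham 2, each left out alone, neither gene was called, with adjusted p values by edgeR of 0.121, 0.116, 0.0582 and 0.0814 for Rgn and 0.106, 0.103, 0.063 and 0.0814 for Inmt, while the log2 fold changes kept between 1.15 and 1.40 for Rgn and between 1.04 and 1.20 for Inmt whichever library was left out.

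**Figure D2:**
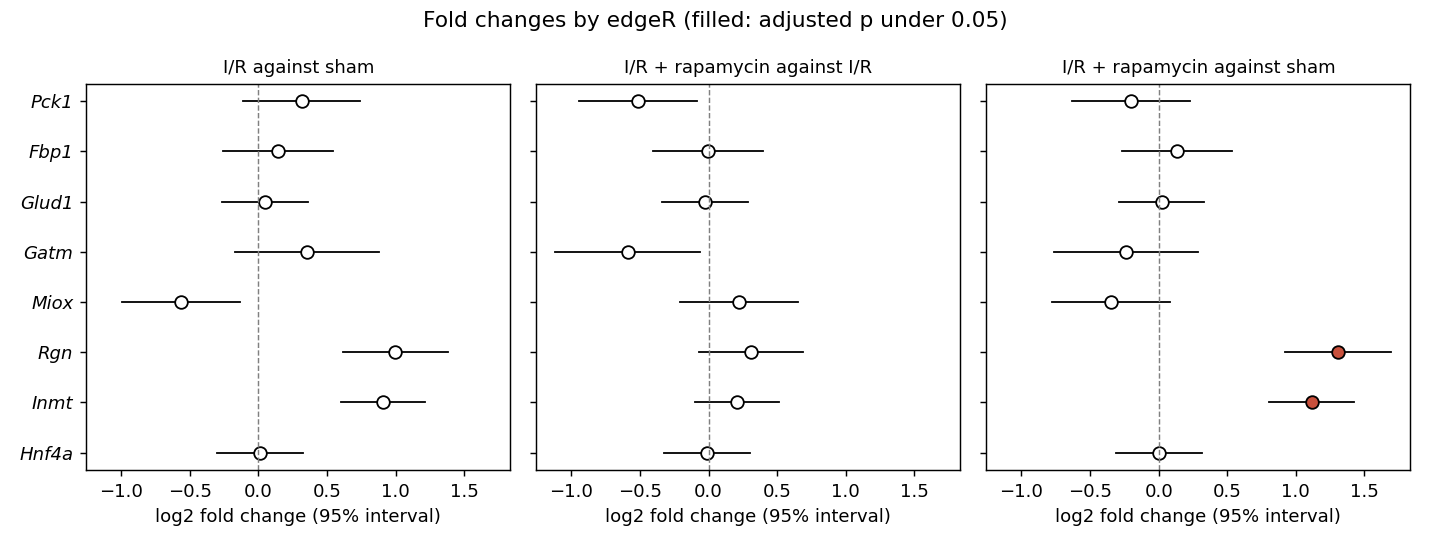
Log2 fold changes of the 8 genes in the 3 comparisons with their 95% intervals from edgeR's quasi-likelihood fit of all 9 libraries. Filled points passed an adjusted p of 0.05: these were Rgn at 1.31 and Inmt at 1.12 in I/R + rapamycin versus sham.

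Some markers of other cells also separated the injured libraries from sham. The summed level of the 5 podocyte markers was 423 to 593 CPM in I/R + rapamycin and 452 to 636 CPM in I/R, against 686 to 702 CPM in sham libraries. The 7 collecting duct markers summed to 838 to 989 CPM in I/R + rapamycin and 839 to 939.5 CPM in I/R, against 1044 to 1064 CPM in sham. Of 5 hepatocyte markers only the fibrinogen gene Fgb carried a symbol in the FPKM table. It was at 8.22 to 19.4 CPM with rapamycin and 5.57 to 14.3 CPM in I/R, against 3.32 to 5.26 CPM in sham. Of the 9 sex-linked genes listed, 0 carried a symbol there. Slc22a2, an organic cation transporter gene known to be higher in male than in female rat kidney, was at 79.8 to 87.6 CPM with rapamycin and 101 to 140.5 CPM in I/R, against 142 to 207 CPM in sham, and fell in I/R + rapamycin versus sham (log2 fold change -1.11, SE 0.16, adjusted p = 0.0278 by edgeR). Slc22a7, an anion transporter gene known to be higher in female rat kidney, was at 40.2 to 105 CPM with rapamycin and 24.4 to 141 CPM in I/R, against 25.1 to 40.8 CPM in sham. The 7 measured of 9 tubular injury markers summed to 524.3 to 998 CPM with rapamycin and 524.2 to 1003 CPM in I/R. In sham they summed to 438.5 to 606 CPM, and these ranges overlapped. By gene, their median log2 fold change was -0.086 in I/R versus sham and -0.020 in I/R + rapamycin versus sham. In these comparisons 2 and 3 of the 7 were fitted above 0, with Spp1 the highest at 1.49 and 1.39. The 7 immediate early and stress markers, among them Jun, Fos and Hspa1a, summed to 275 to 346 CPM with rapamycin and 320.1 to 1541 CPM in I/R, against 531, 1222 and 3314 CPM in sham. In I/R + rapamycin versus sham 6 of these 7 had groups that did not overlap, all lower with rapamycin, against 1672 of all 17335 genes tested. Their median log2 fold change was -2.68, and 0 were called by edgeR. At an unadjusted p under 0.05 there were 5 of the 7, against 13.8% of all genes. Sham 3, the library at 3314 CPM, was also the lowest for Rgn and Inmt, and without it their log2 fold changes versus sham with rapamycin were 1.15 (adjusted p = 0.0307 by edgeR) and 1.04 (adjusted p = 0.036 by edgeR). Sham 1 and sham 2 also lay above all I/R + rapamycin libraries for these markers, so leaving out sham 3 does not test their part. The part of all these shifts in the values of Rgn and Inmt was not tested.

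Transcript length moved with the comparisons as well. Across 11232 genes, which are not independent replicates, the tercile with the shortest transcripts had a median log2 fold change of -0.09 in I/R versus sham and the tercile with the longest 0.051. For rapamycin-treated versus untreated injured kidneys these medians were 0.17 and -0.11, and in I/R + rapamycin versus sham they were 0.080 and -0.057. Inmt and Rgn have implied lengths of 1193 and 1788 bases, against a median of 3195. The fit with the length trend of each library taken out used only genes among these 11232. Its scaling and its adjustment of p therefore also rested on fewer genes. In it, Inmt and Rgn were at 1.04 and 1.07 in I/R versus sham (adjusted p = 0.00364 and 0.0279 by edgeR) and at 1.01 and 1.22 in I/R + rapamycin versus sham. With rapamycin versus I/R alone, Inmt was then at -0.027 and Miox at -0.024.

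**Figure D3:**
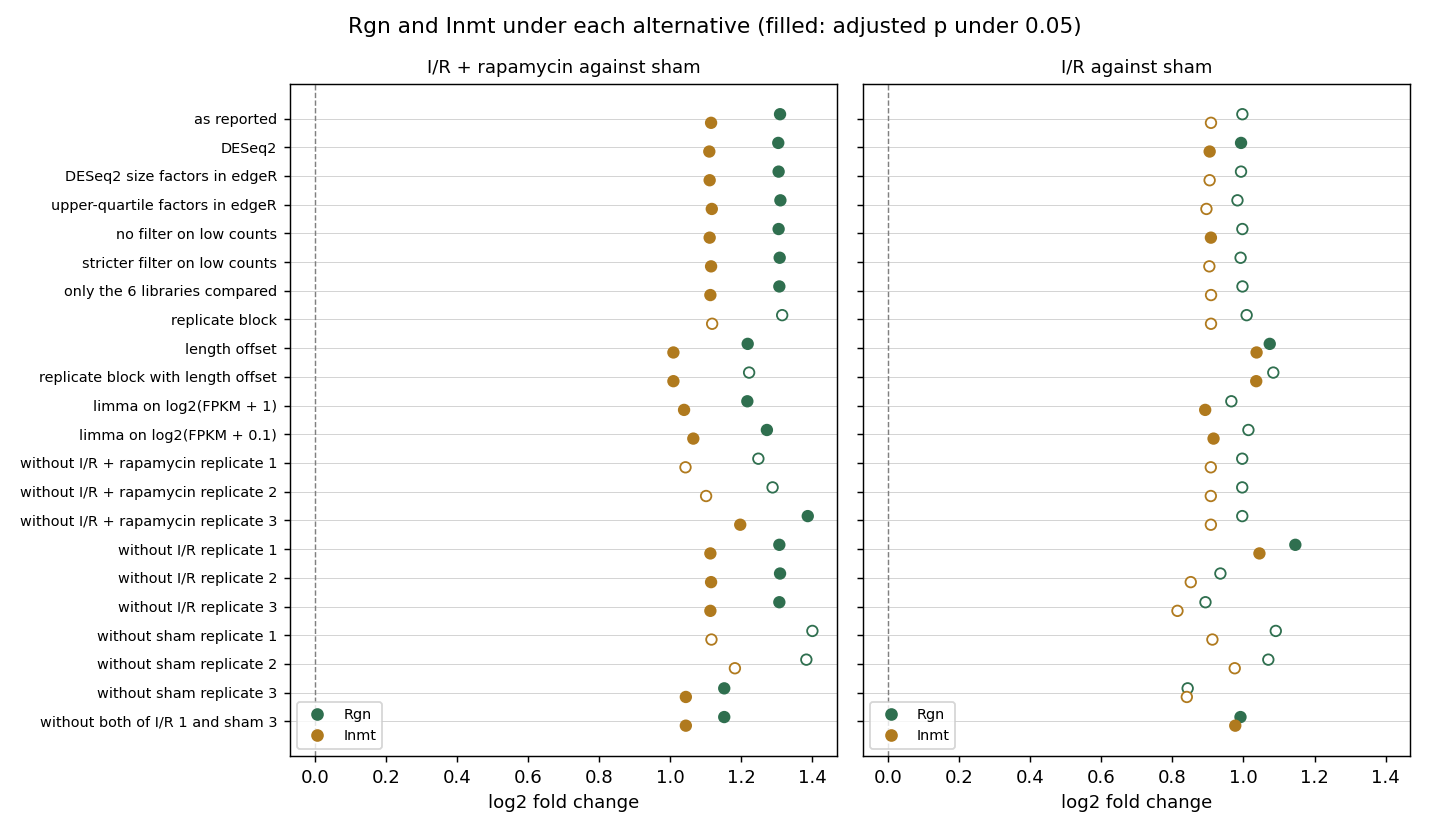
Log2 fold changes of Rgn and Inmt versus sham under each setting of the analysis, with filled points where the adjusted p was under 0.05. All values lie between 0.81 and 1.40, while the side of the threshold changes with the tool, the length offset, the replicate block and the library left out.

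The genes whose levels ran most like those of Rgn over the 9 libraries, among 11224 other named genes, were Gpx2, a glutathione peroxidase gene, Lactb2 and Gsta3, a glutathione transferase gene. Their root mean square differences from Rgn were 0.29, 0.30 and 0.30 in centred log2 CPM. Nearest to Inmt were Tm7sf2, a sterol reductase gene, Stmn1, which encodes stathmin, and Lactb2, at 0.23, 0.23 and 0.23. Rgn and Inmt lay nearer to each other than to any of these. Nearest to Hnf4a were the lysosomal peptidase gene Tpp1, Gatad2a and Ndufaf1, an assembly factor gene of complex I, at 0.058, 0.063 and 0.064, where Hnf4a itself departed from its mean by only 0.15.

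Of 108 further genes in 7 related metabolic and regulatory lists, 95 were tested. By edgeR 0 of the 95 were called in each comparison. At an unadjusted p of 0.05, 8 higher and 3 lower passed in I/R versus sham, 6 higher and 12 lower in I/R + rapamycin versus I/R, and 8 higher and 12 lower in I/R + rapamycin versus sham. These are 11.6%, 18.9% and 21.1% of the 95, against 9.42%, 16.3% and 13.8% of all genes. DESeq2 called 3, 9 and 7 of them in these comparisons, out of 234, 693 and 568 genes it called in all. By limma on log2(FPKM + 1), 1, 0 and 0 of the 95 were called. Removing I/R 1 and sham 3 gave 1, 0 and 1.

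The other enzymes of gluconeogenesis and glucose release showed no change called by edgeR or DESeq2 among 21 tested of 24 listed. Their median log2 fold change was -0.022 in I/R versus sham, 0.12 in I/R + rapamycin versus I/R and 0.079 in I/R + rapamycin versus sham. G6pc1, the catalytic subunit of glucose-6-phosphatase, was at -0.31 (SE 0.18), 0.41 (SE 0.18) and 0.10 (SE 0.18). Tpi1, triosephosphate isomerase, was at 0.22 (SE 0.10) in I/R + rapamycin versus I/R, and the mitochondrial dicarboxylate carrier gene Slc25a10 at 0.23 (SE 0.13) in I/R versus sham. Glycerol kinase (Gk) was at 0.38 (SE 0.13) in I/R and 0.40 (SE 0.13) in I/R + rapamycin versus sham. Pck2, the mitochondrial counterpart of Pck1, was at 0.31 (SE 0.12) in I/R + rapamycin versus sham.

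In the ammonia and glutamate list 10 of 12 genes were tested, with medians of 0.14, -0.029 and 0.14. The bicarbonate cotransporter gene Slc4a4 was at -0.998 (SE 0.28, adjusted p = 0.162 by edgeR) in I/R + rapamycin versus I/R, and glutamine synthetase (Glul) at 0.36 (SE 0.16) in I/R versus sham. Gpt2, an alanine aminotransferase gene, was at 0.30 (SE 0.18) in I/R + rapamycin versus I/R, and Glul and Glyctk at 0.34 (SE 0.16) and 0.19 (SE 0.092) in I/R + rapamycin versus sham. Of the creatine and arginine list 11 of 12 were tested, with medians of 0.013, 0.11 and 0.024. Argininosuccinate lyase (Asl), which releases arginine, was at 178 ± 7.43 CPM with rapamycin and 177 ± 24.1 CPM in I/R, against 114 ± 16.2 CPM in sham (SD, n = 3 each). Its log2 fold changes versus sham were 0.63 in I/R (SE 0.13, adjusted p = 0.186 by edgeR) and 0.64 in I/R + rapamycin (SE 0.13, adjusted p = 0.0935 by edgeR). Argininosuccinate synthase (Ass1), the step before it, was at 0.32 (SE 0.15) and 0.30 (SE 0.15). Between treated and untreated injured kidneys the creatine enzyme gene Gamt was at 0.30 (SE 0.21) and ornithine aminotransferase (Oat) at -0.47 (SE 0.39).

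Of the inositol, glucuronate and ascorbate list, the pathways of Miox and Rgn, 10 of 14 genes were tested, with medians of 0.0018, 0.13 and 0.11. Akr1a1, which reduces glucuronate, was at 0.30 (SE 0.14) in I/R + rapamycin versus I/R and 0.31 (SE 0.14) versus sham. Isyna1, which makes inositol, was at -0.19 (SE 0.11) in I/R versus sham and 0.19 (SE 0.11) in I/R + rapamycin versus I/R, and the inositol transporter gene Slc2a13 at 0.42 (SE 0.25) in I/R and 0.34 (SE 0.25) in I/R + rapamycin versus sham. Of the methyl transfer and tryptophan list, 15 of 16 were tested, with medians of 0.00092, 0.15 and 0.15. Tpmt, which methylates thiopurines, was at 0.45 (SE 0.16) in I/R + rapamycin versus I/R, and Mat2a, which makes the methyl donor, at 0.53 (SE 0.20) in I/R + rapamycin versus sham. Sardh and Bhmt were at 0.28 (SE 0.14) and -0.29 (SE 0.16) in I/R versus sham.

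The 2 lists of regulators had negative medians in the treated kidneys, with 0 genes called by edgeR. DESeq2 called 3 transcription factor genes and 5 genes of the insulin and hormone list as lower in I/R + rapamycin versus I/R. In I/R + rapamycin versus sham it called 1 transcription factor gene as higher, 2 as lower, and 2 genes of the insulin and hormone list as lower. Over all genes, DESeq2 called 693 and 568 in these comparisons, respectively. Of 19 transcription factor genes 17 were tested, with medians of 0.058 in I/R versus sham, -0.21 in I/R + rapamycin versus I/R and -0.28 in I/R + rapamycin versus sham. With the length trend taken out these medians were 0.038, -0.24 and -0.31. Ppara, a receptor that drives fatty acid oxidation, was at 13.6 ± 2.92 CPM with rapamycin and 26.0 ± 6.19 CPM in I/R, against 15.6 ± 1.98 CPM in sham (SD, n = 3 each). Its log2 fold changes were 0.74 (SE 0.20, adjusted p = 0.288 by edgeR) in I/R versus sham and -0.93 (SE 0.20, adjusted p = 0.099 by edgeR) in I/R + rapamycin versus I/R. Against sham, Pax8 was at -0.40 (SE 0.086) in I/R and again at -0.40 (SE 0.086) in I/R + rapamycin, and Klf15, a factor of gluconeogenic control, at 0.48 (SE 0.10, adjusted p = 0.102 by edgeR) in I/R + rapamycin.

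All 11 genes of the insulin and hormone list were tested, with medians of 0.094, -0.11 and -0.42, and of 0.12, -0.12 and -0.36 with the length trend taken out. Pdpk1, the kinase upstream of AKT, was at 12.7 ± 1.59 CPM with rapamycin and 20.8 ± 0.631 CPM in I/R, against 17.0 ± 1.02 CPM in sham (SD, n = 3 each). Its log2 fold change was -0.72 (SE 0.12, adjusted p = 0.059 by edgeR) in I/R + rapamycin versus I/R and -0.42 (SE 0.12) versus sham. Sik1, a kinase that restrains cyclic AMP-driven gluconeogenic transcription, was at -1.27 (SE 0.24, adjusted p = 0.0918 by edgeR) and -1.02 (SE 0.23). The 7 immediate early and stress markers had medians of -1.92 and -2.68 in the same comparisons, with 0 called by edgeR. Their part in the values of Sik1 was not tested. In I/R versus sham the smallest p values of the insulin and hormone list were those of Irs1 at -0.50 (SE 0.17) and of the parathyroid hormone receptor gene Pth1r at 0.24 (SE 0.092).

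**Figure D4:**
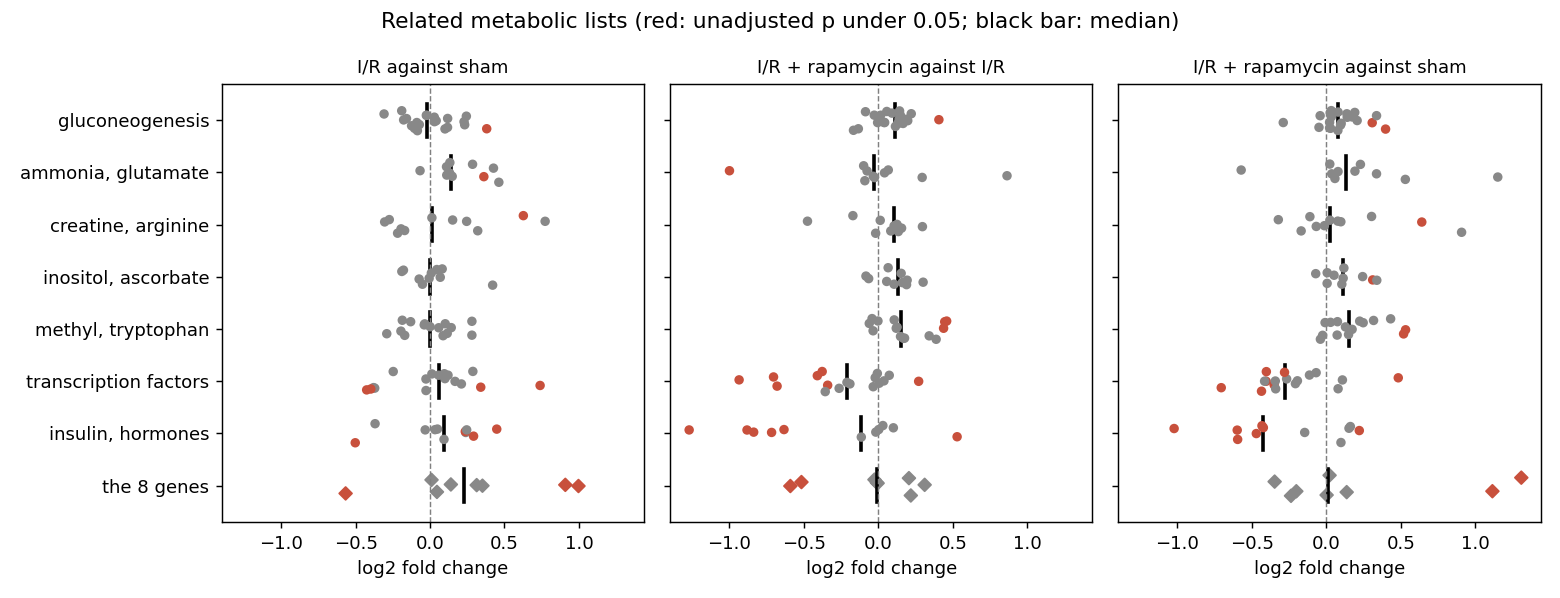
Log2 fold changes of the genes of 7 related lists (circles) and of the 8 genes (diamonds) in the 3 comparisons, with red for an unadjusted p under 0.05 and a black bar for the median of each list. The transcription factor and insulin lists have medians of -0.21 and -0.11 in I/R + rapamycin versus I/R. By edgeR 0 genes of the 7 lists passed an adjusted p of 0.05. DESeq2 called 3, 9 and 7 in the 3 comparisons, out of 234, 693 and 568 genes it called in all.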

How the data were processed

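Poly(A) RNA of 9 samples of rat kidney was sequenced, per the labels' protocols; the labels name the renal tubular cell as cell type beside kidney as tissue. Rnor_6.0, StringTie, HISAT2, cutadapt and DESeq2 appear without versions or order, per the submitters' processing notes. Annotation, strandedness and counting: not given in the sources used here. Reads of overlapping or antisense genes cannot be told apart. The authors deposited raw read counts for 30454 gene IDs and, per the file headers, FPKM values for 11235 genes; each of these reached 1 FPKM in no fewer than 8 of the 9 libraries. Gene symbols come from that FPKM table, in which Pck1 and the other 7 genes have 1 row each.

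Counts were tested in R 4.3.3 with edgeR 4.0.16 (TMM factors, default filter on low counts, robust quasi-likelihood fit of all 9 libraries in 3 groups, no covariate) and Benjamini-Hochberg adjustment over 17335 genes. CPM use TMM-scaled library sizes. The standard error is the log2 fold change over the root of the F statistic, and intervals are 95%. The alternatives used DESeq2 1.42.0, other factors and filters, 6 libraries, a replicate block, an offset for transcript length (as the ratio of counts to FPKM gives it), limma 3.58.1 on log2(FPKM + 1) and log2(FPKM + 0.1), and each library left out. The fit without I/R 1 and sham 3 was chosen after seeing the data. On simulated counts for I/R against sham over 16977 genes, 30% of 50 genes changed 1.5-fold, 71% of 100 changed 2-fold and 94% of 50 changed 4-fold were recovered. The simulation gave 142 calls, 9 of them false, where the reported fit called 10 genes, so its recovery need not hold for the data.

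The 8 genes and all lists were chosen with earlier results of these data known. Genes named from a list are those called or, with none called, the 2 with the smallest p in that comparison, except that some of these are not reported here; the genes nearest to a member were taken by distance. The labels do not say that replicates are separate animals, so what the p-values weigh may be technical spread between samples alone. The chi-square per degree of freedom between libraries of a group was at least 35.4, so none was counted as a copy.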

Additional observations from a re-analysis of the deposited data

How the results depend on the processing

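The 6 genes other than Rgn and Inmt were called under none of the 21 other settings, in 378 values, and no member was called in I/R + rapamycin versus I/R. Rgn and Inmt kept their direction versus sham throughout. The number of members called in I/R versus sham, 0 as reported, was 2 by DESeq2, with the length offset and without I/R 1 and sham 3, and 1 without a filter, with the replicate block and length offset, and by limma with either pseudocount. In I/R + rapamycin versus sham it was 2 as reported, 0 with the replicate block (adjusted p = 0.0973 for Rgn and 0.0777 for Inmt) and 1 with the block and length offset. Leaving out each library gave 0 to 2 members in both comparisons. Same-numbered libraries had deviations correlated between -0.213 and 0.136, and the same number correlated best in 6 of 18 cases, so the numbers were not taken as pairs.

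The number of genes called in I/R versus sham, 10 as reported, was 234 by DESeq2, 2 with the 6 libraries compared, 1 with the replicate block, 26 with the length offset, 22 and 25 by limma with pseudocounts of 1 and 0.1, and 67 without I/R 1 and sham 3. In I/R + rapamycin versus I/R, 22 as reported, it was 693 by DESeq2, 6 with 6 libraries, 1 with the replicate block, 10 with block and length offset, 12 and 11 by limma, and 128 without I/R 1 and sham 3. In I/R + rapamycin versus sham, 27 as reported, it was 568 by DESeq2, 7 with the replicate block, 13 with block and length offset and 104 without I/R 1 and sham 3. Leaving out each library gave 0 to 36, 0 to 47 and 3 to 47 genes. The cause was not tested.

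The values that turned sign were not called, before or after. Most belong to Fbp1, Glud1 and Hnf4a, and the others were reported at 0.22 for Miox and 0.21 for Inmt in I/R + rapamycin versus I/R and at -0.20 for Pck1 in I/R + rapamycin versus sham. In I/R versus sham, Hnf4a was at -0.023 with the length offset and -0.020 with the block added. In I/R + rapamycin versus I/R, Fbp1 was at 0.012 with upper-quartile factors, 0.00034 with the stricter filter and 0.025 with the replicate block, and Hnf4a at 0.0035 with upper-quartile factors and 0.070 without I/R 1 and sham 3. With the length offset Miox, Inmt and Hnf4a were there at -0.024, -0.027 and 0.067, and with the block added at -0.039, -0.026 and 0.067. In I/R + rapamycin versus sham, Hnf4a was at -0.0027 by DESeq2, -0.0020 with DESeq2 size factors, -0.0025 without a filter, -0.00075 with 6 libraries, and -0.031 and -0.032 by limma, and Glud1 at -0.026 by limma with either pseudocount and -0.016 without I/R 1 and sham 3. With each library left out, the ranges that crossed 0 were, in I/R versus sham, -0.020 to 0.30 for Fbp1, -0.053 to 0.19 for Glud1 and -0.078 to 0.17 for Hnf4a. For I/R + rapamycin versus I/R they were -0.17 to 0.16 for Fbp1, -0.17 to 0.073 for Glud1 and -0.080 to 0.070 for Hnf4a. For I/R + rapamycin versus sham they were -0.34 to 0.0091 for Pck1, -0.014 to 0.23 for Fbp1, -0.039 to 0.095 for Glud1 and -0.086 to 0.16 for Hnf4a. Counting error was small beside the differences among the 3 libraries of a group.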
